A study of Mus musculus with 10 samples.

Results

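The BCL2 family genes described here are the 10 genes Bcl2, Bcl2l1, Bcl2l11, Mcl1, Bax, Bak1, Bbc3, Pmaip1, Bmf and Bid, chosen by name from a table of 24594 genes. All 10 were present and all 10 passed the filter on low counts. They were measured by bulk RNA-seq in luminal and basal cells of wild-type C57BL/6J mice, with 5 libraries of each cell type and no treatment named. Mice were in general 12 to 20 weeks old, and the glands were virgin. Mammary tissue was digested with enzymes, cells carrying blood and endothelial surface proteins were depleted, and the 2 epithelial layers were sorted on EpCAM and CD49f. For all 10 libraries the title contradicts the cell type label, and groups follow the label, with which the source name and library description match. In a table of raw counts the libraries summed to between 13203146 and 17998165 reads. All 10 luminal lineage markers were higher in the libraries labelled luminal and all 8 basal markers were higher in those labelled basal. The summed level of the basal markers was 42.7 to 119.8 CPM (the depth-scaled count, on TMM-scaled library totals) in luminal and 13378 to 18446 CPM in basal libraries. That of the luminal markers was 11331 to 16427 CPM in luminal and 1532 to 1902 CPM in basal libraries. Among the luminal markers, Krt8 averaged 509 CPM and Prlr 0.992 CPM in basal libraries. The part of any luminal cells in the basal libraries was not tested.

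The family controls whether the outer mitochondrial membrane stays intact. Pro-survival proteins such as BCL2, BCL-XL and MCL1 hold back the effectors BAX and BAK, which otherwise form pores that release cytochrome c and start caspase activation. BH3-only proteins such as BIM, PUMA, NOXA, BMF and BID carry stress signals to both sides of this balance, and in the mammary gland the family is best known for its part in clearing milk-producing epithelium after weaning. Much of its control acts on protein stability, cleavage and splicing, and counts per gene do not separate the long and short forms of BCL-X, MCL1 or BIM. In bulk samples, fewer cells of a type and less RNA per cell cannot be told apart.

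The layers differed most in 1 pro-survival gene and 1 BH3-only gene. Bcl2l1, which encodes BCL-XL, was 8.38-fold higher in luminal cells, and Bmf, which encodes a BH3-only protein held on the cytoskeleton until it is released, was 7.73-fold higher. Mcl1, Bcl2l11, Bid and Bak1 were also higher in luminal cells, by 1.34-fold to 1.67-fold. Bbc3 and Pmaip1, which encode PUMA and NOXA, were higher in basal cells by 1.45-fold and 1.74-fold. Bcl2 and Bax did not pass the test. In edgeR's quasi-likelihood test with Benjamini-Hochberg adjustment over all 14609 genes tested, 6 of the 10 members were called higher in luminal cells, where 33.6% of all genes were, and 2 were called higher in basal cells, where 31.2% of all genes were. The basal count was 1 with upper-quartile factors, the replicate block or GC and length offsets, 1 without luminal replicate 1, 4 or 5 or basal replicate 1 or 5, and 0 with library totals alone. In the main fit 8 of 10 members were thus called in either direction against 64.8% of all genes, so the share of members called is not far from the background. With GC and length offsets and the replicate block together, Bak1, Bid and Bbc3 lost their calls. The median log2 fold change (luminal over basal, as throughout) was 0.49 over the members and 0.05 over all genes tested. The 2 groups of libraries did not overlap for 5 members, all with luminal above basal, against 50.1% of all genes.

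**Figure D1:**
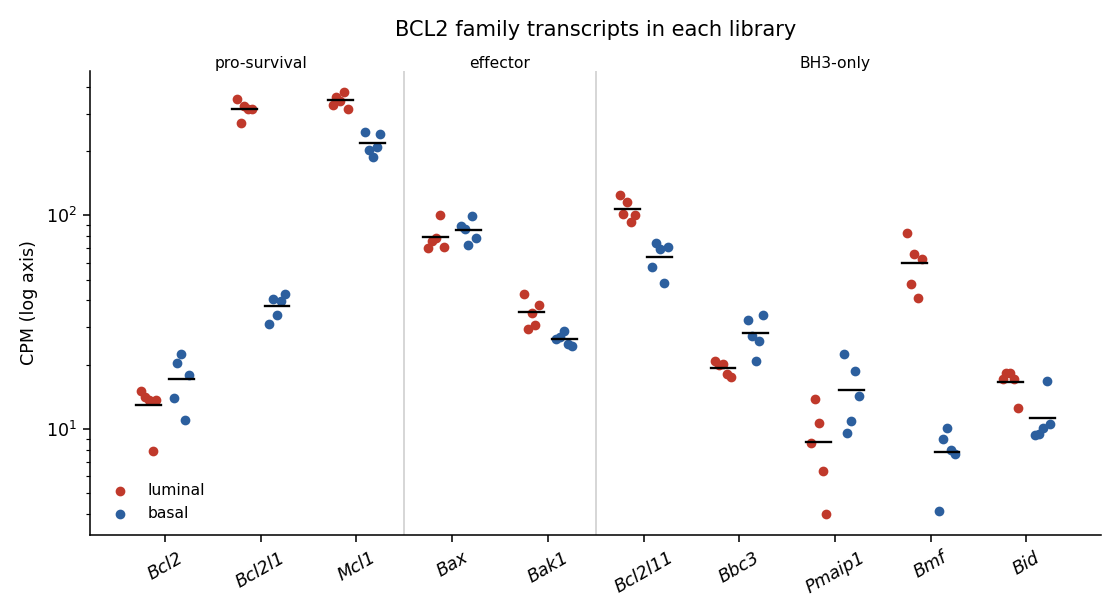
CPM of each member (log axis) in each of the 5 luminal libraries (red) and 5 basal libraries (blue), with points in replicate order from left to right and black bars at the group means. The luminal points stand clear of the basal points for Bcl2l1, Mcl1, Bak1, Bcl2l11 and Bmf, and the widest gaps are those of Bcl2l1 and Bmf.

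Promoter sequences are shown for the members with the largest difference, Bcl2l1 and Bmf, and for the pair Bcl2l11 and Bbc3, which differed in opposite directions and whose windows both hold a forkhead (FOXO) motif. RefSeq start sites on GRCm38.p6 gave 16 windows of 250 bases before the start for 9 members, and Pmaip1 had no entry. Each is printed 5′ to 3′ on the strand of the gene, in lower case with motif matches in capitals. The Bcl2l1 window lies on the minus strand at chr2:152828490-152828739 and is the one of its 3 windows with a match. The Bmf window lies on the minus strand at chr2:118544588-118544837 and is also the one of 3 with a match. The Bcl2l11 window lies on the plus strand at chr2:128125788-128126037, and the Bbc3 window on the plus strand at chr7:16310011-16310260.
Bcl2l1: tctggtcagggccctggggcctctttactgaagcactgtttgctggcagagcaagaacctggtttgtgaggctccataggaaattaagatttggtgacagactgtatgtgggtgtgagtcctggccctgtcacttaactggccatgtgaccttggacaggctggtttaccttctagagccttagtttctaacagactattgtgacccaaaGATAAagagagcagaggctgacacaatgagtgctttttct
Bmf: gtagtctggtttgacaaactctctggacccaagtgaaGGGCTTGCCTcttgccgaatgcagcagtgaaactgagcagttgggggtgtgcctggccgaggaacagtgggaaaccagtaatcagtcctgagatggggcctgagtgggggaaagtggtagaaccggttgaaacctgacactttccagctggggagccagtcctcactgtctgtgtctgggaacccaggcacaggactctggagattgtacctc
Bcl2l11: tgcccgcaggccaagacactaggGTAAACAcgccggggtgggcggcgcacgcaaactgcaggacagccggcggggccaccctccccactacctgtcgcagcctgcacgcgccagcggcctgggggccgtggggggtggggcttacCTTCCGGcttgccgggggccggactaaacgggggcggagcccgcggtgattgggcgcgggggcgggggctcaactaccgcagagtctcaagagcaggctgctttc
Bbc3: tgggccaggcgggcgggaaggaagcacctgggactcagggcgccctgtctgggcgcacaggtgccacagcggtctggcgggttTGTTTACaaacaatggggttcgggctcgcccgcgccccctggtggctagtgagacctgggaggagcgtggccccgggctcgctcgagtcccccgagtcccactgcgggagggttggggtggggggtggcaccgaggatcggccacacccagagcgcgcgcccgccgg

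Motifs were searched as letters on both strands, with N for any base, and no matches overlapped in the windows of the members. The p53 half-site was searched as RRRCWWGYYY, where R is A or G, W is A or T and Y is C or T. The FOXO motif GTAAACA was found in the Bcl2l11 window and, on the reverse strand, in the Bbc3 window, and in 3.17% of all 32851 windows of the same length. GATAA, bound by GATA factors, was found in the Bcl2l1 window and in 22.6% of all windows. A p53 half-site was found in the Bmf and Bax windows and in 7.13% of all windows. The ETS motif CCGGAAG was found in the windows of Mcl1 and, on the reverse strand, Bcl2l11, against 6.91% of all windows. CACGTG, the E-box, was found in Bax and in another Bbc3 window, against 6.02%, and TGACGT, the core of the cyclic AMP response element, in Bcl2, against 6.47%. TTCNNNGAA, the STAT motif, was not among the letters of any member window and was in 7.02% of all windows. The shares are per window, whereas Bcl2l1, Bmf and Bbc3 had 3 windows each and Bcl2l11 had 2, so such a gene had more than 1 try. The windows printed were picked because they hold a match. Those of Bcl2l1, Bmf and Bbc3 lie within the coordinates of the gene, before a start site further inside it. These are matches of letters and not measured binding sites.

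Of the 3 pro-survival members, Bcl2l1 (chromosome 2, 152758732 to 152833803, GRCm38.p6) set the layers apart most. Its level was 349.7, 271, 324, 316 and 316 CPM in luminal replicates 1 to 5 and 30.8, 40.6, 34.2, 39.5 and 42.9 CPM in basal replicates 1 to 5. Every luminal library was far above every basal one. The means were 315 ± 28.4 CPM (SD, n = 5) and 37.6 ± 4.94 CPM (SD, n = 5), a log2 fold change of 3.07 (SE 0.14, 95% interval 2.76 to 3.37, edgeR adjusted p = 4.41e-10). BCL-XL is also abundant in erythroid cells. The erythroid markers Hba-a1 and Hbb-bt together summed to 3.37 to 16.8 CPM in luminal and 0 to 0.187 CPM in basal libraries. Their part in the Bcl2l1 difference was not tested. The 6 fibroblast markers summed to 23.6 to 111.6 CPM in luminal and 35.8 to 51.6 CPM in basal libraries, and the 6 endothelial markers to 2.68 to 7.09 and 9.43 to 16.8 CPM. Luminal replicate 1 had the highest fibroblast sum, with 95.02 CPM of Dcn, and also the highest luminal Bcl2l1, Bmf, Bcl2l11 and Bak1. Without it the log2 fold changes of these members were 3.05, 2.83, 0.70 and 0.36, and each stayed called.

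Mcl1 (chromosome 3, 95656944 to 95663179) encodes a short-lived pro-survival protein whose loss in many tissues is quickly followed by death of the cells. It was counted at 331, 359, 342, 379 and 315 CPM in luminal replicates 1 to 5 and at 246, 202, 188, 208 and 242 CPM in basal replicates 1 to 5. The groups did not overlap, but the gap was much narrower than that of Bcl2l1. From a mean of 217 ± 25.4 CPM (SD, n = 5) in basal cells the level was 345 ± 24.9 CPM (SD, n = 5) in luminal cells. The log2 fold change was 0.67 (SE 0.13, 95% interval 0.39 to 0.95, edgeR adjusted p = 4.36e-04).

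Bcl2 (chromosome 1, 106538176 to 106714290), the founding member, had the lowest level per kilobase of the 3. Luminal replicates 1 to 5 had 15.1, 14.0, 13.7, 7.86 and 13.6 CPM, and basal replicates 1 to 5 had 13.9, 20.3, 22.3, 11.0 and 17.8 CPM. The ranges overlapped, and basal was above luminal in 4 of 5 pairs of libraries with the same number. With means of 12.9 ± 2.87 and 17.1 ± 4.63 CPM (SD, n = 5 each), the log2 fold change of -0.40 (SE 0.23, 95% interval -0.89 to 0.09) did not pass the test (edgeR adjusted p = 0.136). Without basal replicate 4, the lowest basal library, it did (-0.54, adjusted p = 0.0435). With offsets for GC content and transcript length its sign turned, to 0.08 (adjusted p = 0.758). Bcl2 shares 558 of its 9157 exon bases with D630008O14Rik on the opposite strand, and the part of those bases was not tested.

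The make-up of the pro-survival set therefore differed between the layers as well as its amount. The ratio of Bcl2l1 counts to Mcl1 counts within a library was 1.06, 0.754, 0.946, 0.834 and 1.00 in luminal replicates 1 to 5. In basal replicates 1 to 5 the same ratio was 0.125, 0.201, 0.182, 0.19 and 0.177. Luminal cells thus held about as many Bcl2l1 reads as Mcl1 reads, and basal cells far fewer. As a share of the summed CPM of all 10 members, Bcl2l1 made up 31.5% ± 1.89 (SD, n = 5) in luminal and 7.39% ± 0.929 (SD, n = 5) in basal cells. Mcl1 made up 34.6% ± 2.92 in luminal and 42.5% ± 2.78 in basal cells (SD, n = 5 each), although its own level was lower in basal cells. The 10 members together summed to 999.4 ± 47.8 CPM in luminal and 509 ± 29.4 CPM in basal cells (SD, n = 5 each). These ratios and shares are descriptions of the same counts and were not tested.

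The effector members Bax and Bak1 act at the permeabilization step, and their differences were small or did not pass the test. Bax (chromosome 7, 45461695 to 45466903) was counted at 70.2, 76.0, 78.2, 101 and 71.4 CPM in luminal replicates 1 to 5 and at 89.1, 86.1, 72.8, 99.2 and 78.2 CPM in basal replicates 1 to 5. The ranges lay over each other, and luminal replicate 4 was the highest of all 10 libraries. The log2 fold change was -0.10 (SE 0.14, 95% interval -0.40 to 0.20, edgeR adjusted p = 0.537). Bax shares 192 of its 1576 exon bases with Gm45808 on the same strand, and the part of those bases was not tested. The 95% interval leaves room for differences in either direction, and the sign turned to 0.02 with upper-quartile scaling and to 0.08 with library totals alone.

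Bak1 (chromosome 17, 27019812 to 27028627) was 42.7, 29.5, 34.8, 30.7 and 37.8 CPM in luminal replicates 1 to 5 and 26.2, 26.9, 28.7, 24.9 and 24.5 CPM in basal replicates 1 to 5. The lowest luminal library was just above the highest basal one. This gave a log2 fold change of 0.42 (SE 0.14, 95% interval 0.12 to 0.72, edgeR adjusted p = 0.0170). The call was lost without the filter on low counts (0.35, adjusted p = 0.0607) and with GC and length offsets (0.30, adjusted p = 0.0718). Exons of Bak1 share bases with Ggnbp1 on the opposite strand, which was itself higher in luminal cells (log2 fold change 0.49, SE 0.13, edgeR adjusted p = 0.00359). The library kit does not mark strand, so reads from the shared bases cannot be assigned to either gene, and their part in the Bak1 difference was not tested.

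Among the BH3-only members, Bmf (chromosome 2, 118528757 to 118549686) stood out. It was measured at 82.3, 47.6, 66.2, 41.0 and 62.6 CPM in luminal replicates 1 to 5 and at 4.11, 9.0, 10.1, 7.99 and 7.60 CPM in basal replicates 1 to 5. Replicate 1 was the highest and replicate 4 the lowest luminal library, and even the latter was well above every basal library. The means were 59.9 ± 16.3 CPM and 7.77 ± 2.26 CPM (SD, n = 5 each), and the log2 fold change was 2.95 (SE 0.25, 95% interval 2.41 to 3.49, edgeR adjusted p = 1.51e-07).

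Bcl2l11 (chromosome 2, 128126038 to 128162547) encodes BIM, which binds all the main pro-survival proteins and can activate BAX and BAK directly. Its level was 124, 102, 116, 93.1 and 100.3 CPM in luminal replicates 1 to 5 and 57.1, 74.5, 69.2, 48.0 and 70.8 CPM in basal replicates 1 to 5. The groups did not overlap. On the log2 scale the difference was 0.74 (SE 0.15, 95% interval 0.43 to 1.06, edgeR adjusted p = 4.85e-04), and it was larger, at 1.00, with GC and length offsets. Bcl2l11 was therefore higher in luminal cells by less than its binding partner Bcl2l1 was. The ratio of Bcl2l11 counts to Bcl2l1 counts was 0.295 to 0.376 in luminal and 1.21 to 2.02 in basal libraries. The ratio of Bmf to Bcl2l11 went the other way, with 0.440 to 0.664 in luminal and 0.0721 to 0.167 in basal libraries.

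Bid (chromosome 6, 120893119 to 120917062) encodes the protein that caspase-8 cleaves to link death receptors with mitochondria. It was 17.1, 18.3, 18.3, 17.1 and 12.5 CPM in luminal replicates 1 to 5 and 9.34, 9.47, 10.1, 16.7 and 10.5 CPM in basal replicates 1 to 5. Luminal replicate 5 fell below basal replicate 4, so the groups overlapped, although luminal was higher in 5 of 5 same-numbered pairs. The difference was 0.57 on the log2 scale (SE 0.20, 95% interval 0.13 to 1.00, edgeR adjusted p = 0.0234). The call was lost without luminal replicate 3 (0.51, adjusted p = 0.0576), without basal replicate 1 (0.49, adjusted p = 0.0602) and without basal replicate 2 (0.50, adjusted p = 0.0648). It was also lost with GC and length offsets and the replicate block together (0.48, adjusted p = 0.0501). Bid shares 628 of its 3550 exon bases with Bcl2l13 on the opposite strand, which differed by 0.49 (SE 0.17, edgeR adjusted p = 0.0196). The part of those shared bases was not tested.

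Both members that were higher in basal cells are genes that p53 is known to induce. Bbc3 (chromosome 7, 16308398 to 16318334), for PUMA, was 20.7, 19.9, 20.1, 18.2 and 17.6 CPM in luminal replicates 1 to 5 and 32.3, 27.3, 20.7, 25.7 and 34.2 CPM in basal replicates 1 to 5. Luminal libraries were tightly grouped, and only basal replicate 3 reached their range. The log2 fold change was -0.54 (SE 0.16, 95% interval -0.88 to -0.20, edgeR adjusted p = 0.00792), with basal higher in 5 of 5 same-numbered pairs. The longest Bbc3 transcript is 65.2% G and C, the highest of the 10 members. With GC and length offsets the difference was -0.02 (adjusted p = 0.933), and with library totals in place of TMM it was -0.35 (adjusted p = 0.0827), so the call rested on how the counts were scaled.

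Pmaip1, for NOXA, which acts mainly on MCL1, had the largest SE of the 10 members. Its level was 8.62, 13.8, 10.7, 6.33 and 3.99 CPM in luminal replicates 1 to 5 and 22.4, 9.61, 10.9, 18.7 and 14.2 CPM in basal replicates 1 to 5. The groups overlapped, and luminal was above basal in 1 of 5 same-numbered pairs, that of replicate 2. The log2 fold change of -0.80 (SE 0.32, 95% interval -1.49 to -0.11) just passed the test (edgeR adjusted p = 0.0401). It did not with the replicate number as a block (-0.85, adjusted p = 0.0574). Leaving out luminal replicate 1, 4 or 5 or basal replicate 1, 4 or 5 also ended the call, with adjusted p values of 0.0596 to 0.112. So did upper-quartile factors (-0.68, adjusted p = 0.0758) and library totals alone (-0.59, adjusted p = 0.128).

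Pmaip1 and Mcl1 are both quickly induced by stress, and cells here went through long digestion before sorting. The 12 immediate-early and heat-shock genes listed for dissociation stress summed to 10173 CPM in basal replicate 1, the library with the highest Pmaip1, and to 4964 to 7552 CPM in the other basal libraries. Basal replicate 4, second in Pmaip1, had 5529 CPM. Basal Mcl1 was highest in replicates 1 and 5, where the stress sum was also highest, and lowest in replicate 3, where it was lowest. Luminal Mcl1 was highest in replicate 4, where the luminal stress sum was lowest, and lowest in replicate 5, where it was highest. In luminal libraries the 12 genes summed to 4825 to 6761 CPM, with the highest sum in replicate 5, which had the lowest Pmaip1 of all 10 libraries. Hspa1a and Hspa1b had the highest luminal means of the 12. They were lowest in luminal replicate 4 (1136 and 1147 CPM) and highest in luminal replicate 5 (2123 and 2108 CPM). Junb and Jun came next by luminal mean. Luminal Junb was highest in replicate 4 (910 CPM) and lowest in replicate 5 (709 CPM). Luminal Jun was highest in replicate 2 (828 CPM) and lowest in replicate 1 (437 CPM). The luminal order therefore depended on the gene. Of the 12, 10 were higher in basal and 2 in luminal cells, against 31.2% and 33.6% of all genes. Those higher in basal cells included Nr4a1 (-2.51, SE 0.44, edgeR adjusted p = 1.86e-04) and Dusp1 (-2.07, SE 0.19, edgeR adjusted p = 4.06e-07). The heat-shock genes Hspa1a (1.2, SE 0.30, edgeR adjusted p = 0.00307) and Hspa1b (1.17, SE 0.28, edgeR adjusted p = 0.00212) were higher in luminal cells, and they are near-identical copies whose counts may be split. The part of these genes' changes in the values of the members was not tested.

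**Figure D2:**
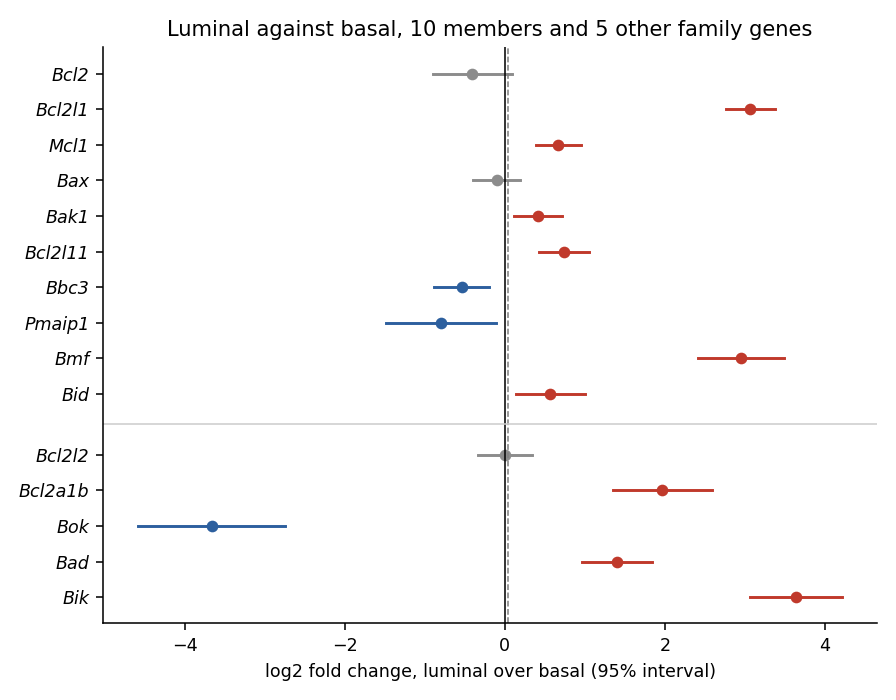
Log2 fold change of luminal over basal (points) with 95% intervals (bars) for the 10 members, above the line, and for 5 other family genes, below it. Red and blue mark genes called higher in luminal and in basal cells, grey marks genes that did not pass the test, and the dashed line is the median of all genes tested at 0.05.

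Levels can be set beside each other between genes once divided by transcript length. Per kilobase of the longest annotated transcript, luminal cells held most Bcl2l1, with 122.8 ± 11.0 CPM per kilobase (SD, n = 5), then Mcl1 with 101 ± 7.28 and Bax with 72.1 ± 11.3. By this length the ranges of Bcl2l1 and Mcl1 overlapped, and that of Bax was apart from both. In basal cells the order by level per kilobase was Bax with 77.4 ± 9.27, Mcl1 with 63.6 ± 7.44 and then, at a distance, Bbc3 with 15.5 ± 2.97 and Bcl2l1 with 14.6 ± 1.92. Bax and Mcl1 overlapped there, as did Bbc3 and Bcl2l1. Bmf was in position 6 of 10 in luminal cells, with 12.9 ± 3.51 CPM per kilobase, and last in basal cells, with 1.67 ± 0.488. Bcl2 was last in luminal cells, with 1.79 ± 0.399 CPM per kilobase, and overlapped with Pmaip1 there and with Bmf in basal cells. Over the union of all exons, which is longer for Bcl2l1, Mcl1 came first in both layers, and the luminal level of Bcl2l1 was 68.8 ± 6.19 CPM per kilobase. By the union the luminal ranges of Mcl1 and Bcl2l1 were apart, and those of Bcl2l1 (59.1 to 76.3) and Bax (44.6 to 63.9) overlapped. The order of the leading pair, and whether Bax lay apart from Bcl2l1 in luminal cells, therefore depended on the length used.

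**Figure D3:**
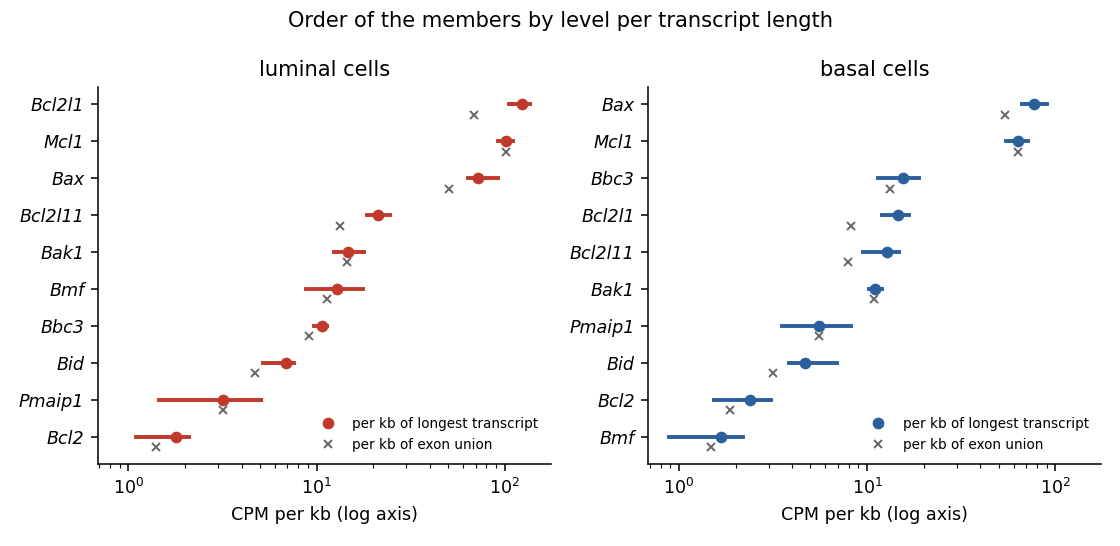
Level of each member in CPM per kilobase (log axis) in luminal cells (left) and basal cells (right), ordered by the mean. Points and lines give the mean and the range over 5 libraries per kilobase of the longest transcript, and crosses the mean per kilobase of the union of exons. Bcl2l1 leads in luminal cells and is in position 4 in basal cells, and Bmf moves from position 6 to the last.

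Of the 9 other family genes with BH motifs, 5 passed the filter on low counts. Bik, a BH3-only gene of epithelial cells, was 43.0 to 73.6 CPM in luminal and 2.81 to 7.36 CPM in basal libraries, a log2 fold change of 3.64 (SE 0.27, edgeR adjusted p = 3.47e-08), against 3.07 for Bcl2l1. The gap between those 2 was not tested. Bad, whose product is kept inactive by phosphorylation downstream of growth factors, was higher in luminal cells (1.40, SE 0.20, edgeR adjusted p = 3.35e-05), and shares 524 exon bases with Gpr137 on the opposite strand, which differed by 1.58. Bok, a BAX-like effector, was the one called higher in basal cells, at 0.737 to 4.27 CPM in luminal and 16.6 to 35.9 CPM in basal libraries (-3.66, SE 0.43, edgeR adjusted p = 3.88e-06). Its 95% interval, -4.58 to -2.74, lay apart from those of the other effector genes Bax and Bak1. Bcl2l2, which encodes BCL-W, did not pass the test, with 53.2 ± 8.75 CPM in luminal and 53 ± 8.76 CPM in basal cells (SD, n = 5 each) and a 95% interval of -0.33 to 0.34. Bcl2l2 shares 594 of its 4462 exon bases with Gm20521 on the same strand, and the part of those bases was not tested. Bcl2a1b was 5.00 to 8.84 CPM in luminal and 1.31 to 2.47 CPM in basal libraries (1.97, SE 0.29, edgeR adjusted p = 3.48e-05). With GC and length offsets its value was 1.15 (adjusted p = 0.00354). It has near-identical copies in Bcl2a1a and Bcl2a1d and shares 401 of its 817 exon bases with Gm29094 on the same strand, so its counts are uncertain, and it is known mainly from leukocytes. The 10 leukocyte markers summed to 6.06 to 15.3 CPM in luminal and 13.3 to 35.1 CPM in basal libraries, with Ptprc at 0.126 and 0.0261 CPM on average and Cd3e at 0 in every library. Most of the basal sum was Cd74, with 20.7 CPM on average against 2.62 CPM in luminal cells (-2.97, edgeR adjusted p = 6.23e-06). Cd52 (2.03, edgeR adjusted p = 0.00664) and Lyz2 (1.69, edgeR adjusted p = 0.0139) were higher in luminal cells, the direction of Bcl2a1b, at 4.64 and 1.31 CPM on average. The part of leukocytes in the Bcl2a1b difference was not tested. Bcl2a1a, Bcl2a1d, Bcl2l10 and Hrk were too low to be tested, with at most 26 counts in a library.

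Downstream of the mitochondria, 5 of 15 apoptosome and caspase genes were higher in luminal cells, 3 were higher in basal cells and 7 were not called. The median was 0.16 against 0.05 for all genes. Since 64.8% of all genes were called, 33.6% higher in luminal and 31.2% in basal cells, these counts are not far from the background. With library totals alone, 1 gene of the list was higher in basal cells. Casp9, the initiator caspase of this route, was higher in luminal cells (28.4 ± 6.90 against 8.31 ± 1.93 CPM, SD, n = 5 each; log2 fold change 1.77, SE 0.22, edgeR adjusted p = 6.50e-06). Apaf1, the scaffold on which caspase-9 is activated, went the other way (-1.16, SE 0.15, edgeR adjusted p = 9.74e-06), as did Diablo, an antagonist of inhibitor-of-apoptosis proteins (-0.44, SE 0.13, edgeR adjusted p = 0.00975). The call of Diablo was lost with library totals alone (-0.25, edgeR adjusted p = 0.137). The transcripts of the initiator caspase and of its scaffold thus differed in opposite directions between the layers.

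Factors known to act on these genes were mostly higher in basal cells. Of 15 regulators, 11 were called higher in basal and 2 in luminal cells, with a median of -0.86. Among all genes, 31.2% were called higher in basal and 33.6% in luminal cells. The list as a whole was not tested. Stat5a and Stat5b, which pass on prolactin signals and are known to induce Bcl2l1, were the 2 higher in luminal cells (1.95, SE 0.30, edgeR adjusted p = 5.22e-05, and 1.02, SE 0.20, edgeR adjusted p = 4.65e-04). Luminal Stat5a was 314, 75.6, 159.7, 132 and 187 CPM in replicates 1 to 5, highest in replicate 1 and lowest in replicate 2. Trp63, a basal lineage factor of the p53 family, had a value of -7.95 (SE 0.27, edgeR adjusted p = 4.93e-11). Myc was at -2.82 (SE 0.18, edgeR adjusted p = 8.77e-09), and Trp73, which did not reach 10 CPM on average in either layer, lay between them at -4.25.

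Of 14 p53 target genes outside the family, 9 were higher in basal and 5 in luminal cells, against 31.2% and 33.6% of all genes. Their median was -0.69, and none missed the test, although with DESeq2 size factors 4 were called higher in luminal cells. Gdf15 (-3.83, SE 0.19, edgeR adjusted p = 7.65e-10) and Sesn2 (-3.16, SE 0.22, edgeR adjusted p = 1.88e-08), both also targets of the stress factor ATF4, had the largest basal values. Plk2 (3.01, SE 0.20, edgeR adjusted p = 1.32e-08) and Ccng1 (1.48, SE 0.15, edgeR adjusted p = 1.21e-06) had large luminal ones. The list was thus called in both directions, whereas the p53-induced members Bbc3 and Pmaip1 were called higher in basal cells, calls that were lost in the settings given with each, and Bax, at -0.10, was not called.

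**Figure D4:**
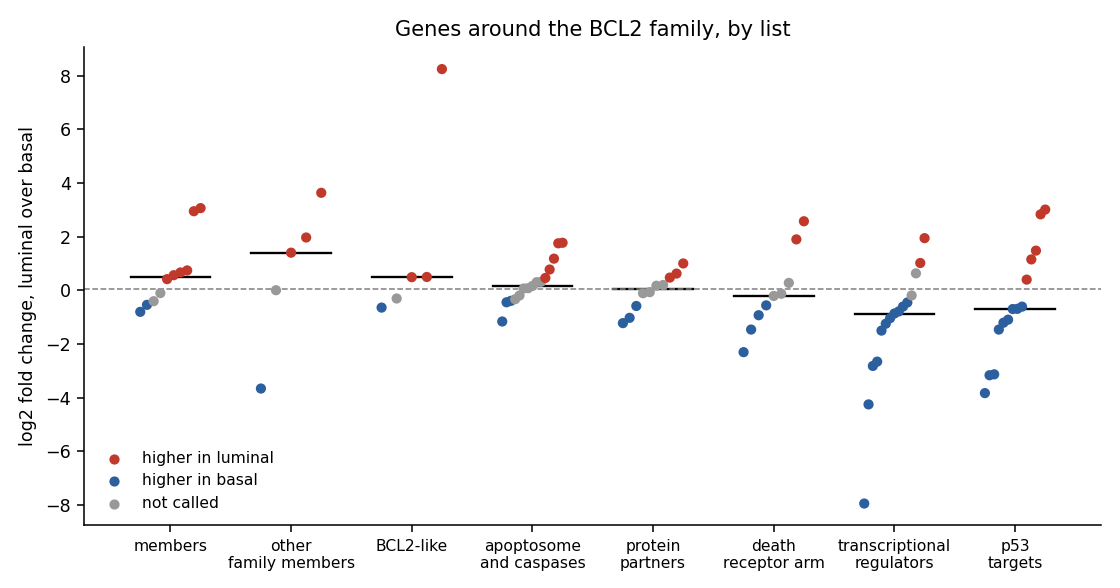
Log2 fold change of luminal over basal for each tested gene of the members and of 7 lists of genes around them, with a black bar at the median of each list and a dashed line at the median of all genes tested. The regulators and p53 targets have medians of -0.86 and -0.69, and that of the members is 0.49.

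Bcl2l1, Mcl1, Bcl2l11 and Bmf kept their direction and their call in all 21 other settings, which were 11 changes of scaling, filter, test or covariates and 10 fits that each left out 1 library. Their values ranged from 2.98 to 3.25, from 0.60 to 0.86, from 0.65 to 1.01 and from 2.78 to 3.14 on the log2 scale. The other called members held in fewer settings, Bak1 and Bbc3 in 18 of 21, Bid in 17 and Pmaip1 in 12.

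**Figure D5:**
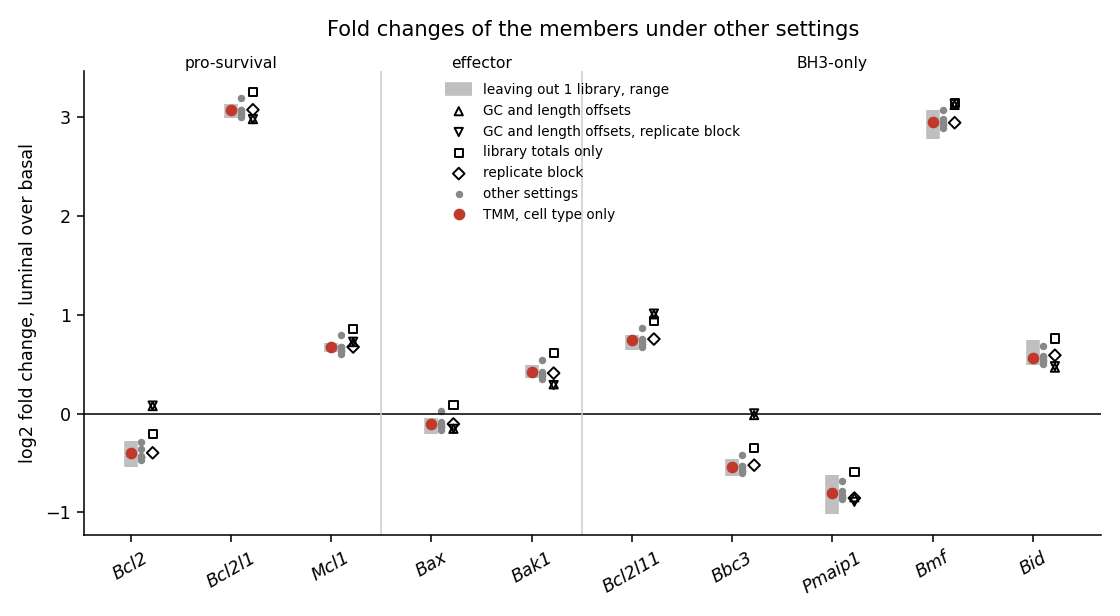
Log2 fold change of luminal over basal for each member as reported (red), over 10 fits that each leave out 1 library (grey bars) and under 11 other settings (symbols and grey dots). Bcl2l1 and Bmf stay near 3 and Mcl1 and Bcl2l11 above 0.6, and Bbc3 and Bcl2 reach 0 with GC and length offsets.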

How the data were processed

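Per the labels and the study's methods, poly(A) RNA of sorted cells was made into libraries with a kit that does not mark strand and read as 51-base single ends. The submitters' processing notes list cutadapt 4.2 and Bowtie2 2.3.5.1, with mm10. How reads were assigned to genes (tool, annotation, strand) is not given in the sources used here. The methods describe fewer replicates than the 5 libraries per group held here. The authors deposited raw counts per gene, as whole numbers with no normalization.

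From these counts, genes were filtered with filterByExpr (minimum count 10, minimum total 15), which left 14609 of 24594 genes, and TMM factors scaled the totals. The layers were tested against each other by edgeR's quasi-likelihood F test (edgeR 4.0.16, R 4.3.3), with no term besides cell type, as the study names no block. Benjamini-Hochberg adjustment ran over the whole table of tested genes, and 0.05 was the threshold. SE was taken as the absolute log2 fold change over the root of F. Tests were checked on simulated data. Symbols and coordinates are from RefSeq GRCm38.p6, and exons, lengths and GC content (known for 93.8% of genes tested) from GENCODE M21.

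Replicate numbers come from the titles. Same-numbered libraries share the leading number of their description, read as the animal, and this is the source of the pairing. Correlations of their deviations from the group means ranged from -0.134 to 0.252 (mean 0.0442).

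The members and lists were chosen with earlier results of these data known. Named genes are the members, the other family genes, Trps1, and from each list the 2 largest called differences in each direction with at least 10 CPM. One result under this rule is not reported here. Alternatives were DESeq2 size factors, upper-quartile factors or totals in place of TMM, no filter or at least 10 counts in every library, DESeq2 1.42.0, limma voom 3.58.1, the replicate block, thinning, leaving out each library, and GC and length offsets with the block. The same offsets without the block were chosen after seeing the data.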

Additional observations from a re-analysis of the deposited data

Results flagged for a closer look

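In 93 groups of 5 libraries tested for a library far from the other 4, 12 values stood out, where chance gives about 1 in 20 groups, or 4.65. Among the members, luminal replicate 4 had 7.86 CPM of Bcl2 (others 13.6 to 15.1) and 101 CPM of Bax (others 70.2 to 78.2). Luminal replicate 5 had 12.5 CPM of Bid (others 17.1 to 18.3), and basal replicate 4 had 16.7 CPM (others 9.34 to 10.5).

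Among other family genes, Bik was 73.6 CPM in luminal replicate 4 (others 43.0 to 49.0) and 7.36 CPM in basal replicate 2 (others 2.81 to 4.02). Bcl2a1d was 0.273 CPM (4 counts) in basal replicate 2, with 0 in the others, and Hrk was 1.56 CPM (26 counts) in basal replicate 5 (others 0 to 0.409). A value with 0 in all the others stands out here whatever its size, so that of Bcl2a1d says little. Bcl2l14 was 76.1 CPM in luminal replicate 5 (others 38.1 to 47.2). Huwe1 was 118 CPM in luminal replicate 4 (others 176 to 199.1), and Dusp1 was 135 CPM in luminal replicate 2 (others 86.5 to 99.95). The TMM factor was 0.892 in basal replicate 1 (others 0.943 to 0.961).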

How the results depend on the processing

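List counts other than those below stayed within 1.5 times, and named genes other than those below kept their direction and their side of the threshold in the settings run. Upper-quartile factors and library totals moved the median of all genes from 0.05 to 0.17 and 0.24. With upper-quartile factors 1 member was higher in basal cells, Bax was 0.0235 and Pmaip1 -0.68 (adjusted p = 0.0758). With library totals 0 members and 1 apoptosome gene were higher in basal cells, Bax was 0.0848, Bbc3 -0.35 (adjusted p = 0.0827), Pmaip1 -0.59 (adjusted p = 0.128) and Diablo -0.25 (adjusted p = 0.137). Without a filter 2 other family genes were higher in basal cells and Bak1 was 0.35. Bcl2l2 turned to -0.0332 with DESeq2 size factors, -0.0329 with DESeq2, -0.0596 without a filter and -0.0168 with at least 10 counts in every library.

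With the replicate block, which pairs libraries by the number read as the animal, 1 member was higher in basal cells and Pmaip1 was -0.85. It changed no other call named in the text. GC and length offsets left 1 member and raised the BCL2-like genes higher in basal cells to 2, whether with the block or without. With the block they gave Bcl2 0.0807, Bak1 0.29 (adjusted p = 0.0923), Bbc3 0.00163 (adjusted p = 0.994), Bid 0.48 (adjusted p = 0.0501) and Bcl2l12 0.0099. Without it they gave Bcl2 0.0753, Bak1 0.30, Bbc3 -0.0156 and Bcl2l12 0.0166. The causes were not tested.

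Fits that each left out 1 library gave 1 to 2 members higher in basal cells. Bcl2l12 lost its call without luminal replicate 3 (0.40) and without basal replicate 1 (0.42). Values ranged from -0.54 to -0.27 for Bcl2, -1.02 to -0.62 for Pmaip1, 0.49 to 0.74 for Bid and -0.080 to 0.0815 for Bcl2l2. Per kilobase of the union of exons, Mcl1 moved to position 1 and Bcl2l1 to 2 in luminal cells, with Bak1 at 4 and Bcl2l11 at 5. In basal cells Mcl1 moved to 1, Bax to 2, Bak1 to 4, Bcl2l1 to 5 and Bcl2l11 to 6. Pmaip1 had 63 to 359 counts in a library, and thinning every library to the smallest total kept its call (-0.78, adjusted p = 0.0379).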

Other observations

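Of 10 genes for protein partners of members, luminal cells had more of 3 and basal cells more of 3, a share near the 64.8% of all genes called. Dynll1, a dynein light chain known to hold BIM, was higher in luminal cells (90.2 ± 20 against 45.0 ± 7.50 CPM, SD, n = 5 each; log2 fold change 1.00, SE 0.17, edgeR adjusted p = 1.54e-04). So was Trim17, a ubiquitin ligase known to act on MCL1 (0.63, SE 0.19, edgeR adjusted p = 0.0113). Huwe1, another MCL1 ligase (-1.22, SE 0.19, edgeR adjusted p = 6.59e-05), and Usp9x, which removes ubiquitin from MCL1 (-1.02, SE 0.17, edgeR adjusted p = 9.70e-05), were both higher in basal cells. A further ligase that acts on MCL1, Fbxw7, did not pass the test (-0.11, SE 0.18, edgeR adjusted p = 0.615).

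Of 9 genes of the death receptor arm, which meets the family at Bid, basal cells had more of 4 and luminal cells more of 2, again near the share of all genes. Fas, a death receptor (-2.30, SE 0.25, edgeR adjusted p = 1.73e-06), and Cflar, which encodes the caspase-8 inhibitor FLIP (-1.46, SE 0.14, edgeR adjusted p = 3.78e-07), were both higher in basal cells. Tnfrsf21, which encodes death receptor DR6 (2.58, SE 0.18, edgeR adjusted p = 1.95e-08), and the adaptor Fadd (1.90, SE 0.25, edgeR adjusted p = 1.15e-05) were higher in luminal cells. Casp8, whose product cleaves BID, did not pass the test (-0.13, SE 0.15, edgeR adjusted p = 0.458).

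Of 6 BCL2-like genes, 5 were tested. Luminal cells had more of 3 and basal cells more of 1, where 64.8% of all genes were called in either direction. With GC and length offsets 2 were higher in basal cells. Bcl2l14 was close to a luminal transcript, with 38.1 to 76.1 CPM in luminal libraries and 0 to 5 counts in basal ones. Bcl2l12 was 0.50 (SE 0.17, edgeR adjusted p = 0.0185), and Bnip3l, a mitophagy receptor, was -0.64 (SE 0.15, edgeR adjusted p = 0.00160). The value of Bcl2l12 fell to 0.02 (edgeR adjusted p = 0.932) with GC and length offsets. Its call was also lost without luminal replicate 3 or basal replicate 1. Trps1, the gene the study follows, was 164 ± 28.4 CPM in luminal and 62.6 ± 15.9 CPM in basal cells (SD, n = 5 each; log2 fold change 1.39, SE 0.19, edgeR adjusted p = 1.64e-05).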
